A study of Mus musculus with 37 samples.

Results

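GABA-A receptors are pentameric chloride channels through which GABA inhibits neurons. Most are assembled from alpha, beta and gamma subunits, and the alpha subunit sets much of a receptor's location, kinetics and drug sensitivity. Receptors with alpha2 or alpha3 are known mainly from synapses, where they carry phasic inhibition. Receptors with alpha5, and those in which delta replaces gamma beside alpha4 or alpha6, are known mainly from outside the synapse, where they carry tonic inhibition. The genes described here encode alpha2 to alpha6 (Gabra2, Gabra3, Gabra4, Gabra5 and Gabra6) and delta (Gabrd), 6 of the 57180 genes in each count table. Their rows were taken by symbol, and the list was chosen with earlier results of these data known.

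The data were translating RNA of the ventral midbrain of mice, sequenced from ribosomes that carry an EGFP-tagged L10a subunit. NuTRAP mice hold this tag at Rosa26 behind a floxed stop, so that Cre decides which cells are tagged. In DAT;NuTRAP mice Cre is driven by the dopamine transporter gene Slc6a3, which marks dopamine neurons, and in VGAT;NuTRAP mice by the vesicular GABA transporter gene Slc32a1, which marks GABA neurons. All mice carried NuTRAP and 1 Cre driver, were aged without treatment, and gave 1 library each. The dissected piece held the substantia nigra and the ventral tegmental area, so each library is a mixture over all tagged cells of that piece.

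There were 19 DAT;NuTRAP libraries, 9 from old mice (4 females, 5 males, all 21 months) and 10 from young mice (5 females, 5 males, 2 at 8 months, 7 at 9 months and 1 at 10.5 months). There were 18 VGAT;NuTRAP libraries, 8 from old mice (5 females, 3 males, 7 at 21 months and 1 at 24 months) and 10 from young mice (6 females, 4 males, 2 at 7 months, 4 at 8.5 months and 4 at 9 months). The labels also put each library in a first or a second batch (8 and 11 for DAT;NuTRAP, 6 and 12 for VGAT;NuTRAP), without saying whether the batches of the 2 models were handled together.

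Library totals ran from 13841253 to 38235015 counts. DAT;NuTRAP libraries of the second batch detected 14323 to 18170 genes and those of the first batch 19085 to 21051. Levels are given as CPM (counts scaled to the library total) with TMM factors computed over the 37 libraries. The labels held against their defining genes, but not cleanly. Slc6a3 averaged 3277 CPM in DAT;NuTRAP and 797 CPM in VGAT;NuTRAP, and Th, the rate-limiting enzyme of dopamine synthesis, 3554 CPM in DAT;NuTRAP and 367 CPM in VGAT;NuTRAP. Gad1, a GABA-synthesizing enzyme, averaged 135 CPM in DAT;NuTRAP libraries, 7.48% of its level in VGAT;NuTRAP libraries, and Slc32a1 averaged 96.9 CPM, 23.0% of its level there. Glial and vascular markers were present in both models and higher in DAT;NuTRAP, where 8 of 8 astrocyte, 7 of 7 oligodendrocyte and 5 of 5 endothelial markers were called higher, and 0 of 8 microglial markers.

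The alpha subunits fall into 2 sets by a single codon. A histidine in the extracellular part of alpha2, alpha3 and alpha5 is needed for binding of classical benzodiazepines, and alpha4 and alpha6 carry an arginine there. The stretches below show this codon in capitals within the coding sequence of a GENCODE M39 transcript of each gene, read 5′ to 3′ on the minus strand of GRCm39.
Gabra2, chr5:71171833-71171862: gataccttctttCACaatgggaaaaagtca
Gabra3, chrX:71544759-71544788: gataccttcttcCACaatggtaaaaaatca
Gabra5, chr7:57138624-57138653: gacacgttcttcCACaacggcaagaagtcc
Gabra4, chr5:71798480-71798509: gatactttcttcAGGaatggaaagaaatct
Gabra6, chr11:42208459-42208488: gacacttttttcCGGaatgggaaaaagtca
CAC encodes histidine in Gabra2, Gabra3 and Gabra5, and AGG and CGG encode arginine in Gabra4 and Gabra6. All 6 genes lie on the minus strand. Gabra2 (chr5:71114573-71253662) and Gabra4 (chr5:71721738-71815722) share a cluster with Gabrg1 and Gabrb1, Gabra5 (chr7:57055164-57240831) lies beside Gabrg3, Gabra3 (chrX:71476275-71700723) beside Gabre and Gabrq, and Gabra6 (chr11:42197264-42211910) beside Gabrb2. Gabrd (chr4:155469407-155482872) stands apart from these clusters.

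Dopamine and GABA neurons differed in which alpha subunit transcripts their ribosomes held. Of the 5 genes that passed the filter on low counts, Gabra4 was higher in DAT;NuTRAP and Gabra2, Gabra3 and Gabra5 were lower. Gabrd was close to the lower limit of measurement in both models and was not called, and Gabra6 had no count in any library. Many genes differ between the models: of 16898 genes tested, 30.0% were called higher and 30.4% lower in DAT;NuTRAP, against 1 and 3 of these 5. The counts were again 1 and 3 in old mice alone (22.7% and 24.1% of all genes) and in young mice alone (24.3% and 25.4%). At an unadjusted p below 0.05, 4 of the 5 passed in each case, against 63.7% of all genes in both ages, 52.5% in old and 54.9% in young mice. Each call is from edgeR's quasi-likelihood test with batch as a term and an adjusted p below 0.05. In a library of many cells, fewer cells with a transcript and less transcript in each cell cannot be told apart.

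**Figure D1:**
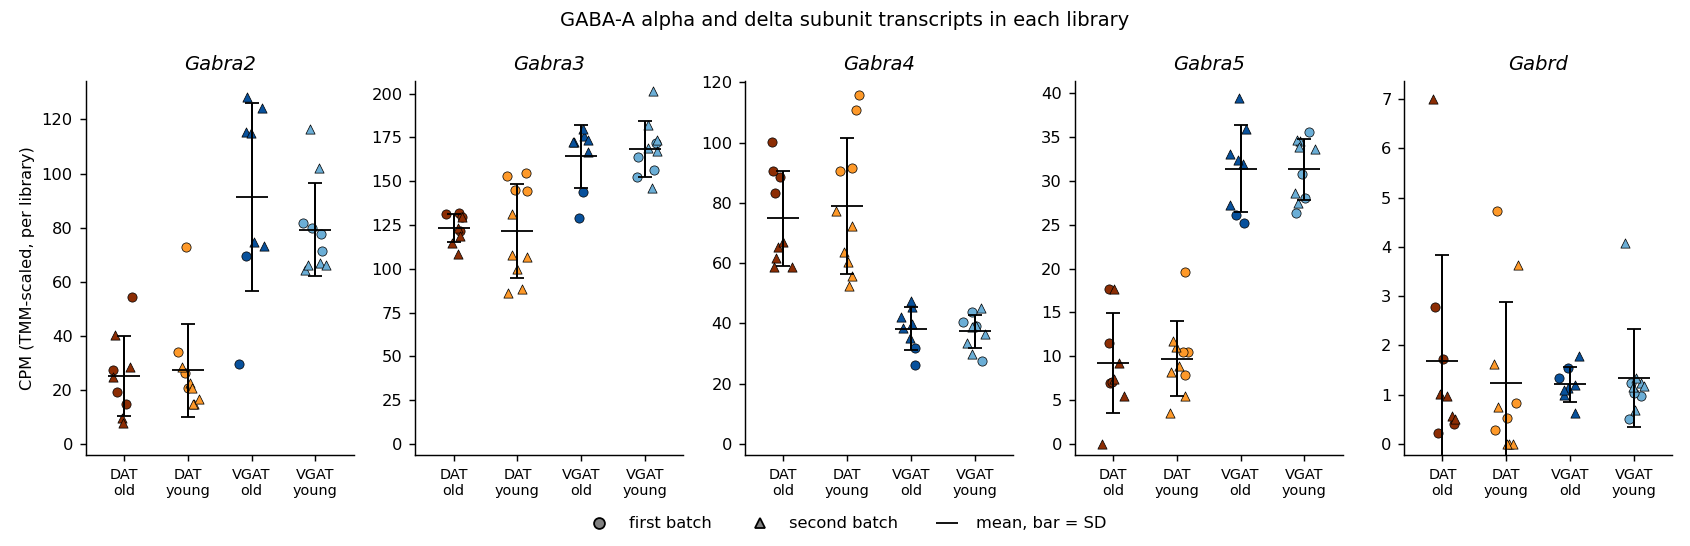
CPM of 5 subunit genes (vertical axes, CPM scaled by TMM, each panel on its own scale) in every library of the 4 groups of model and age. Libraries of the first batch are drawn as circles and those of the second as triangles, with lines at the mean and 1 SD. For Gabra4 the lowest DAT;NuTRAP library (52.5 CPM) lies above the highest VGAT;NuTRAP library (47.4 CPM), and for Gabra5 the highest DAT;NuTRAP library (19.7 CPM) lies below the lowest VGAT;NuTRAP library (25.2 CPM).

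Gabra4 encodes the alpha4 subunit, known from extrasynaptic receptors with delta. It had a lowest level of 52.5, a median of 72.3 and a highest of 116 CPM in DAT;NuTRAP libraries, against 26.2, 38.8 and 47.4 CPM in VGAT;NuTRAP libraries. All 19 DAT;NuTRAP libraries were above all 18 VGAT;NuTRAP libraries. The level averaged 77.1 ± 19.2 CPM in DAT;NuTRAP (SD, n = 19) and 37.8 ± 6.13 CPM in VGAT;NuTRAP (SD, n = 18). This is a log2 fold change of 0.96 ± 0.09 (SE), or 1.95-fold (95% interval 1.71 to 2.21), with an adjusted p of 4.5e-12. It was 0.87 ± 0.14 in old and 1.05 ± 0.12 in young mice (adjusted p = 9.08e-07 and 1.38e-09).

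Gabra4 was higher in DAT;NuTRAP within each batch, by a larger factor in the first, and the difference between batches was not tested. Levels ran from 83.1 to 116 CPM in first-batch and from 52.5 to 77.3 CPM in second-batch DAT;NuTRAP libraries, without overlap. VGAT;NuTRAP libraries spanned 26.2 to 43.8 CPM in the first batch and 30.0 to 47.4 CPM in the second. The log2 fold change between models was 1.53 ± 0.11 (SE) in the first batch alone and 0.66 ± 0.08 in the second alone (adjusted p = 2.26e-09 and 7.74e-09). Summed oligodendrocyte markers also separated the DAT;NuTRAP batches, with 1130 to 2335 CPM in the second and 507 to 772 CPM in the first, and their part in the result was not tested. Summed markers of thalamic neurons separated the models as Gabra4 did, with 466.3 to 652.4 CPM in DAT;NuTRAP libraries and 200.3 to 299.8 CPM in VGAT;NuTRAP libraries, and 3 of 6 were called higher and 1 lower in DAT;NuTRAP (median log2 fold change 0.71). Most of this sum was Calb2, which encodes the calcium-binding protein calretinin and averaged 536 CPM in DAT;NuTRAP and 219.6 CPM in VGAT;NuTRAP. The part of these markers in the Gabra4 difference was not tested.

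Gabra5 encodes alpha5, an extrasynaptic and hippocampus-enriched subunit. Its level ran from 0 over a median of 8.87 to 19.7 CPM in DAT;NuTRAP libraries, against 25.2, 32.1 and 39.4 CPM in VGAT;NuTRAP libraries. No DAT;NuTRAP library reached the lowest VGAT;NuTRAP library. The mean was 9.50 ± 4.88 CPM in DAT;NuTRAP (SD, n = 19) and 31.4 ± 4.07 CPM in VGAT;NuTRAP (SD, n = 18). The log2 fold change was -1.76 ± 0.23 (SE), a level 0.295 times that of VGAT;NuTRAP (95% interval 0.213 to 0.410), with an adjusted p of 4.25e-08. It was -1.29 ± 0.24 within the first batch and -2.02 ± 0.35 within the second (adjusted p = 0.000863 and 3.69e-05). Summed markers of striatal neurons separated the models in the same direction as Gabra5. They ran from 43.2 to 101.2 CPM in DAT;NuTRAP libraries and from 109.3 to 227.0 CPM in VGAT;NuTRAP libraries. Of these 6 markers 0 were called higher and 3 lower in DAT;NuTRAP (median log2 fold change -0.83), and their part in the Gabra5 difference was not tested.

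The library at 0 was that of DAT;NuTRAP old female 2, the shallowest of all with 13841253 counts and also the one with the fewest genes detected. A count of 0 there allows up to 0.217 CPM (3 counts of the library's total, counting error only). Over 37 fits that each left out 1 library, the Gabra5 log2 fold change lay between -1.89 and -1.66 and was called each time. At old age it was -1.81 ± 0.34 (SE) and at young age -1.70 ± 0.31 (adjusted p = 3.84e-05 and 2.12e-05).

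Gabra2 encodes alpha2, a synaptic subunit prominent on axon initial segments in the forebrain. It had a lowest level of 7.77, a median of 22.6 and a highest of 72.9 CPM in DAT;NuTRAP libraries, against 29.5, 76.2 and 128 CPM in VGAT;NuTRAP libraries. The groups overlapped, with 4 of 19 DAT;NuTRAP libraries inside the VGAT;NuTRAP range and the other 15 below it. The mean was 26.3 ± 15.7 CPM in DAT;NuTRAP (SD, n = 19) and 84.6 ± 26.4 CPM in VGAT;NuTRAP (SD, n = 18). The log2 fold change was -1.76 ± 0.23 (SE), a level 0.295 times that of VGAT;NuTRAP (95% interval 0.213 to 0.408), with an adjusted p of 4.49e-08. It was -1.94 ± 0.34 in old and -1.58 ± 0.30 in young mice (adjusted p = 1.35e-05 and 4.77e-05).

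The Gabra2 libraries that overlapped between the models within a batch were all of the first batch. Second-batch libraries had 7.77 to 40.2 CPM in DAT;NuTRAP and 64.4 to 128 CPM in VGAT;NuTRAP, without overlap, and a log2 fold change of -2.16 ± 0.24 (SE, adjusted p = 1.23e-07). First-batch libraries had 14.95 to 72.9 CPM in DAT;NuTRAP and 29.5 to 81.6 CPM in VGAT;NuTRAP, with a log2 fold change of -0.90 ± 0.38 and an adjusted p of 0.0764, so the call was lost. The first batch held 8 DAT;NuTRAP and 6 VGAT;NuTRAP libraries. Its lowest VGAT;NuTRAP library was old male 1 (29.5 CPM), and its highest DAT;NuTRAP libraries were young male 2 (72.9 CPM) and old male 2 (54.5 CPM).

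Gabra3 encodes alpha3, a synaptic subunit known from monoaminergic and brainstem neurons. It had a lowest level of 86.0, a median of 123 and a highest of 155 CPM in DAT;NuTRAP libraries, against 129, 170 and 201 CPM in VGAT;NuTRAP libraries. All 19 DAT;NuTRAP libraries were below the VGAT;NuTRAP median, and 9 lay inside the VGAT;NuTRAP range. The mean was 122 ± 19.8 CPM in DAT;NuTRAP (SD, n = 19) and 167 ± 16.4 CPM in VGAT;NuTRAP (SD, n = 18). The log2 fold change was -0.46 ± 0.07 (SE), a level 0.728 times that of VGAT;NuTRAP (95% interval 0.664 to 0.797), with an adjusted p of 7.67e-08.

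The Gabra3 difference was called in the second batch and not in the first. It was -0.66 ± 0.06 (SE) on the log2 scale in the second batch (adjusted p = 3.9e-11), where DAT;NuTRAP libraries ran from 86.0 to 131 CPM and VGAT;NuTRAP libraries from 146 to 201 CPM. In the first batch it was -0.11 ± 0.05 with an adjusted p of 0.110, and 7 of 8 DAT;NuTRAP libraries lay inside the VGAT;NuTRAP range. It was called at old (-0.44 ± 0.10, adjusted p = 0.000194) and at young age (-0.48 ± 0.09, adjusted p = 1.31e-05) when both batches were fitted.

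**Figure D2:**
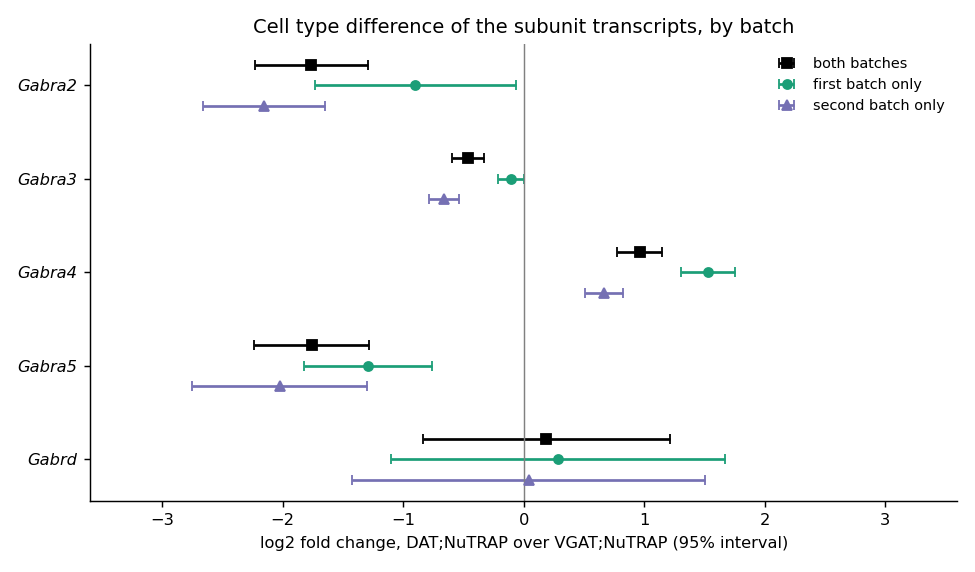
Log2 fold change of each gene in DAT;NuTRAP over VGAT;NuTRAP libraries (horizontal axis) with its 95% interval, fitted on both batches and on each batch alone. Gabra4 lies right of 0 and Gabra5 left of 0 in all 3 fits. For Gabra2 and Gabra3 the first batch gives smaller differences (-0.90 and -0.11) than the second (-2.16 and -0.66), and the Gabrd intervals include 0 in all 3.

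Gabrd encodes delta, the partner of alpha4 in many tonic receptors. It had 0 to 129 counts in DAT;NuTRAP libraries and 11 to 123 in VGAT;NuTRAP libraries. Its lowest level was 0, its median 0.750 and its highest 6.99 CPM in DAT;NuTRAP, against 0.510, 1.17 and 4.08 CPM in VGAT;NuTRAP. The DAT;NuTRAP libraries spread on both sides of the VGAT;NuTRAP range, with 6 below all VGAT;NuTRAP libraries and 2 above all of them. The log2 fold change was 0.19 ± 0.51 (SE), with a 95% interval from -0.83 to 1.21 and an adjusted p of 0.769. A log2 fold change as large as that of Gabra4 in the same direction lies within this interval.

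The spread of Gabrd among DAT;NuTRAP libraries was large, with an SD of 128% of the mean against 59.0% in VGAT;NuTRAP. The 3 DAT;NuTRAP libraries at 0 were young females 3 and 5 and young male 4, all second-batch, where a count of 0 allows up to 0.170, 0.163 and 0.0785 CPM. Gabrd was highest in old female 2 (6.99 CPM, 98 counts), young female 1 (4.73 CPM) and young male 3 (3.64 CPM) of DAT;NuTRAP and in young female 6 of VGAT;NuTRAP (4.08 CPM). Leaving out any 1 of these 3 DAT;NuTRAP libraries turned the sign, to -0.24 without old female 2, -0.09 without young female 1 and -0.03 without young male 3. DAT;NuTRAP young female 1 also had the highest summed forebrain excitatory neuron markers of its model, 134 CPM against 8.18 to 70.0 CPM in the other 18, and old female 2 had 21.5 CPM. Their part in the Gabrd level was not tested.

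Gabra6 encodes alpha6, known from cerebellar granule cells, where it pairs with delta. It was at 0 counts in all 37 libraries. A count of 0 allows up to 0.0785 to 0.217 CPM in a single library, and 0.00317 CPM over the 946554367 counts of all libraries together. Summed markers of cerebellar granule cells were low but not 0, with 33.3 to 71.9 CPM in DAT;NuTRAP and 18.4 to 50.4 CPM in VGAT;NuTRAP. The highest gene of that list was Grin2c, a glutamate receptor subunit, which averaged 33.2 CPM in DAT;NuTRAP and 9.30 CPM in VGAT;NuTRAP. The list as a whole did not go 1 way between the models. Of its 8 genes 7 were tested, 3 were called higher and 0 lower in DAT;NuTRAP, and the median log2 fold change was -0.63.

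Dividing CPM by the summed exon length of each gene sets the levels of different subunits side by side. Per kilobase, the order in DAT;NuTRAP was Gabra3 (17.7 ± 2.86 CPM per kb), Gabra4 (7.66 ± 1.90), Gabra2 (2.93 ± 1.76), Gabra5 (1.05 ± 0.542) and Gabrd (0.232 ± 0.297; SD, n = 19). In VGAT;NuTRAP it was Gabra3 (24.1 ± 2.37 CPM per kb), Gabra2 (9.43 ± 2.94), Gabra4 (3.75 ± 0.609), Gabra5 (3.48 ± 0.451) and Gabrd (0.206 ± 0.121, SD, n = 18). Gabra4 was thus the second subunit in DAT;NuTRAP and Gabra2 the second in VGAT;NuTRAP. The Gabra4 and Gabra5 levels of VGAT;NuTRAP, neighbours in that order, differed by less than the SD of either.

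As a share of the summed CPM per kb of the 6 genes, Gabra3 held nearly the same part in both models, 60.4% ± 5.25 in DAT;NuTRAP and 59.2% ± 4.00 in VGAT;NuTRAP (SD, n = 19 and 18). Gabra4 held 25.8% ± 3.41 in DAT;NuTRAP and 9.19% ± 1.25 in VGAT;NuTRAP. Gabra2 held 9.53% ± 4.18 and Gabra5 3.48% ± 1.51 in DAT;NuTRAP, against 22.6% ± 5.02 and 8.54% ± 1.04 in VGAT;NuTRAP. The transcripts with the histidine codon shown above (Gabra2, Gabra3 and Gabra5) together made up 67.5% to 77.8% in DAT;NuTRAP libraries and 88.0% to 92.4% in VGAT;NuTRAP libraries. These shares are a description of 6 genes, carry no test, and leave out other alpha subunits.

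Of 25 further genes, the other GABA-A subunits and proteins that anchor or traffic the receptors, 23 were tested between the models. In DAT;NuTRAP 3 were called higher and 16 lower, against 30.0% higher and 30.4% lower of all genes, and their median log2 fold change was -0.69, against 0.01 over all 16898 genes. Gabrb2, a beta subunit, was at -3.40 ± 0.23 (log2, SE, adjusted p = 1.41e-14). Gabrb2 averaged 42.2 CPM in DAT;NuTRAP and 307 CPM in VGAT;NuTRAP. Plcl1 and Nsf, which act in receptor trafficking, were at -1.65 and -0.74. The 3 called higher, named after their values were seen, were Gabarap (0.66) and Gabarapl1 (0.41), ubiquitin-like proteins of vesicle traffic and autophagy, and Clptm1 (0.11), which holds subunits in the endoplasmic reticulum. No subunit gene of this list was called higher.

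Gabra4 differed from its neighbours on chromosome 5. In the cluster Gabrg1, Gabra2, Gabra4 and Gabrb1, the log2 fold changes of DAT;NuTRAP over VGAT;NuTRAP were -1.78 ± 0.15, -1.76 ± 0.23, 0.96 ± 0.09 and -0.43 ± 0.09 (SE), all with adjusted p below 0.05. Gabrb1 lies on the strand opposite to Gabra4, and their annotated exons share 101 bases. On chromosome 7, Gabrg3 (-0.83 ± 0.15) and Gabra5 (-1.76 ± 0.23) were both lower. On the X chromosome, Gabre (-1.20 ± 0.29) and Gabra3 (-0.46 ± 0.07) were lower and Gabrq (0.08 ± 0.14, adjusted p = 0.65) was not called. The strand setting of the counting is not given in the sources used here, so reads of the shared bases cannot be assigned with certainty.

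The anchors differed as well. Gphn, which encodes gephyrin, the scaffold that holds alpha2 and alpha3 receptors at synapses, averaged 42.8 ± 11.6 CPM in DAT;NuTRAP and 83.5 ± 6.22 CPM in VGAT;NuTRAP (SD, n = 19 and 18), a log2 fold change of -1.02 ± 0.08 (SE, adjusted p = 2.63e-14). Rdx encodes radixin, which anchors alpha5 receptors outside synapses. It averaged 105 ± 10.2 CPM in DAT;NuTRAP and 125 ± 5.53 CPM in VGAT;NuTRAP, a log2 fold change of -0.26 ± 0.04 (SE, adjusted p = 3.16e-07).

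**Figure D3:**
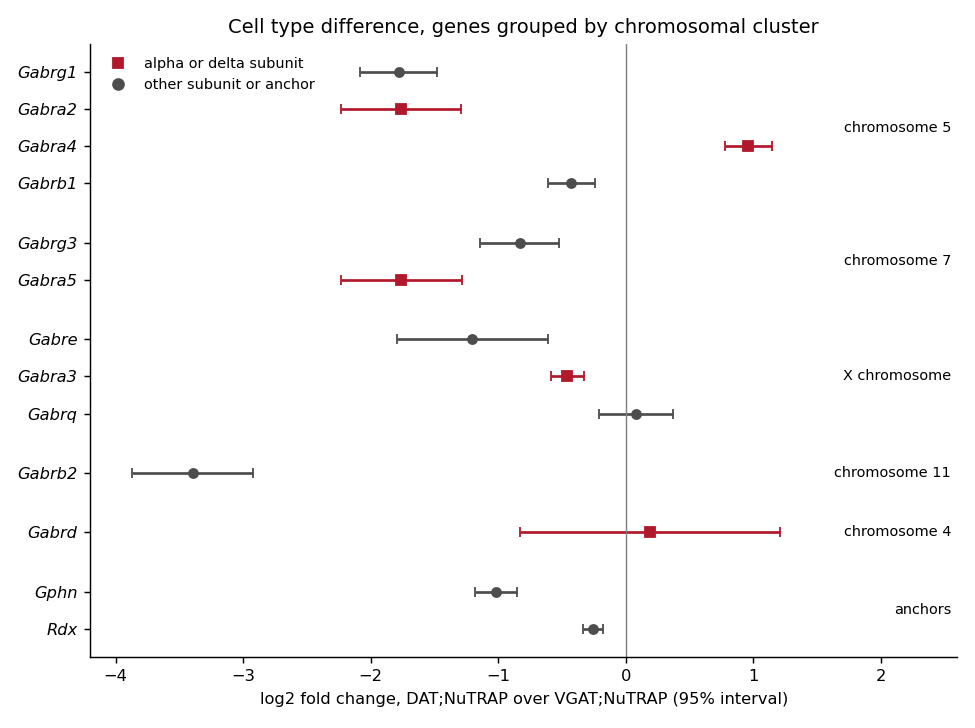
Log2 fold change of DAT;NuTRAP over VGAT;NuTRAP (horizontal axis) with its 95% interval for the alpha and delta genes (squares) and for other subunits of their clusters and 2 anchors (circles), grouped by chromosome. Gabra4 (0.96) lies right of 0 while the other 3 genes of its cluster lie between -1.78 and -0.43.

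No age difference of these transcripts passed the test in either model, with intervals that differed widely between genes. With edgeR, 0 of 5 genes were called between old and young mice in DAT;NuTRAP and 0 of 5 in VGAT;NuTRAP. Few genes of any kind were called: 1 higher (0.00672%) and 0 lower of 14889 in DAT;NuTRAP, and 4 higher (0.0256%) and 0 lower of 15607 in VGAT;NuTRAP. None of the 5 had an unadjusted p below 0.05 in either comparison, against 5.28% and 5.98% of all genes, and DESeq2 also called 0.

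Gabra4 had a lowest level of 58.8, a median of 67.1 and a highest of 100 CPM in old and 52.5, 74.8 and 116 CPM in young DAT;NuTRAP mice. The old libraries lay within the range of the young ones, and the log2 fold change of old over young was -0.09 ± 0.08 (SE, 95% interval -0.26 to 0.07). Gabra3 ran from 109 over 123 to 132 CPM in old and from 86.0 over 120 to 155 CPM in young DAT;NuTRAP mice, with a log2 fold change of 0.02 ± 0.08 (95% interval -0.14 to 0.19). For both genes, with both batches fitted, the interval excludes an age difference as large as the difference between the models. For Gabra3 this does not hold within the first batch. There its log2 fold change was -0.22 for age in DAT;NuTRAP and -0.11 between the models. Gabra2 (7.77, 24.6 and 54.5 CPM in old, 14.9, 21.7 and 72.9 CPM in young) and Gabra5 (0, 7.41 and 17.7 CPM in old, 3.58, 9.67 and 19.7 CPM in young) overlapped likewise. Their log2 fold changes of -0.08 ± 0.33 and -0.09 ± 0.45 have wider intervals, from -0.78 to 0.61 and from -1.03 to 0.85. With both batches fitted, these intervals also exclude an age difference as large as the difference between the models, -1.76 for each gene. Gabrd was at 0.43 ± 0.93 with an interval from -1.47 to 2.33.

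In VGAT;NuTRAP the old and young ranges overlapped for each gene. Gabra3 had a lowest level of 129, a median of 172 and a highest of 180 CPM in old and 146, 168 and 201 CPM in young mice, and a log2 fold change of -0.07 ± 0.05 (SE). Gabra5 ran from 25.2 over 32.1 to 39.4 CPM in old and from 26.4 over 32.2 to 35.6 CPM in young mice, at -0.03 ± 0.08. Gabra4 ran from 26.2 over 39.1 to 47.4 CPM in old and from 27.6 over 38.8 to 45.0 CPM in young mice, at 0.01 ± 0.11. The 95% intervals of these 3 genes lay between -0.21 and 0.23. Gabra2 spread more in old mice (29.5, 94.9 and 128 CPM) than in young mice (64.4, 74.4 and 116 CPM), at 0.10 ± 0.22, and Gabrd was at -0.16 ± 0.33.

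The batches did not give the same direction of age difference for several genes. In DAT;NuTRAP, first-batch Gabra3 lay between 121 and 132 CPM in the 4 old libraries and between 144 and 155 CPM in the 4 young ones, without overlap, at a log2 fold change of -0.22 ± 0.07 (SE, unadjusted p = 0.00589, adjusted p = 0.311). In the second batch it was 0.21 ± 0.11 (adjusted p = 0.9). In VGAT;NuTRAP, Gabra2 was at -0.65 ± 0.34 in the first batch, which held 2 old libraries, and at 0.39 ± 0.21 in the second, and Gabra4 was at -0.38 ± 0.18 in the first and 0.16 ± 0.09 in the second. None of these within-batch values was called, and the difference between batches was not tested.

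Within each sex, Gabra2 in VGAT;NuTRAP females was the single case among the 5 genes and 4 sex-wise comparisons with an unadjusted p below 0.05. The 5 old females had 69.5, 73.3, 115, 124 and 128 CPM, and the 6 young females a lowest of 64.4, a median of 69.1 and a highest of 81.6 CPM. The 3 higher old libraries stood above all young ones and the other 2 lay within their range. The log2 fold change was 0.49 ± 0.20 (SE, unadjusted p = 0.0408), and it did not pass the adjustment over all genes (adjusted p = 0.887). By comparison, 5.59% of all genes had an unadjusted p below 0.05 there. VGAT;NuTRAP males had 29.5, 74.8 and 115 CPM in 3 old mice and 66.2, 79.8, 102 and 116 CPM in 4 young mice, a log2 fold change of -0.38 ± 0.40. The difference between the sexes, male minus female, was -0.71 ± 0.44 (adjusted p = 0.967). Without the filter on low counts its standard error was 0.12 and its adjusted p 5.06e-06, the only one of 5 alternatives, leaving out single libraries aside, that called it.

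**Figure D4:**
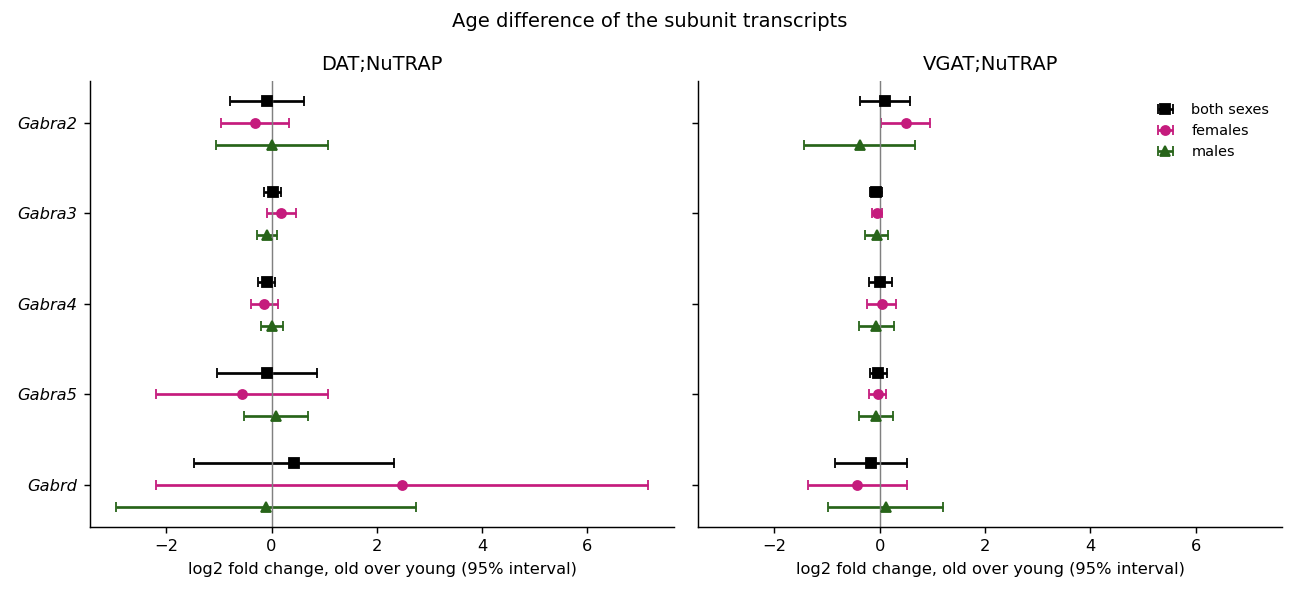
Log2 fold change of old over young mice (horizontal axis, same scale in both panels) with its 95% interval for each gene, in both sexes together, in females and in males, for DAT;NuTRAP and VGAT;NuTRAP. Every interval but that of Gabra2 in VGAT;NuTRAP females (0.03 to 0.96) includes 0, and the Gabrd intervals in DAT;NuTRAP are the widest.

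In the other sex-wise comparisons no value passed an unadjusted p of 0.05, against 4.05% of all genes in DAT;NuTRAP females, 5.50% in DAT;NuTRAP males and 5.12% in VGAT;NuTRAP males. With adjustment, 0.0320% of all genes were called higher in VGAT;NuTRAP females, 0.0252% higher and 0.0063% lower in VGAT;NuTRAP males, and none of the 5. For the difference between the sexes, 0 of the 5 passed an unadjusted p of 0.05 in either model, against 4.25% of all genes in DAT;NuTRAP and 5.09% in VGAT;NuTRAP. DAT;NuTRAP females gave -0.32 ± 0.30 for Gabra2, 0.19 ± 0.13 for Gabra3, -0.14 ± 0.12 for Gabra4 and -0.56 ± 0.77 for Gabra5 (log2, SE). DAT;NuTRAP males gave 0.01 ± 0.48 for Gabra2, -0.09 ± 0.09 for Gabra3, 0.01 ± 0.10 for Gabra4 and 0.09 ± 0.29 for Gabra5. Gabrd was at 2.47 ± 2.22 in DAT;NuTRAP females and -0.10 ± 1.33 in males. The female value was 0.82 without old female 2, 1.56 without young female 3, 1.54 without young female 5 and 5.38 without young female 4, and was not called in any of these fits. No difference in age change between the models passed the test. The values of DAT;NuTRAP minus VGAT;NuTRAP were -0.36 ± 0.44 for Gabra2, 0.04 ± 0.13 for Gabra3, -0.18 ± 0.18 for Gabra4, -0.11 ± 0.45 for Gabra5 and 0.56 ± 1.01 for Gabrd. Of 16898 genes 0 were called by edgeR, 467 (2.76%, and 0 of the 5) had an unadjusted p below 0.05, and DESeq2 called 1, none of the 5. With age, 8 of 8 astrocyte and 7 of 7 oligodendrocyte markers had positive log2 fold changes of old over young in DAT;NuTRAP, with medians of 0.38 and 0.31 on the log2 scale, as had 7 of 8 microglial (0.82) and 5 of 5 endothelial markers (0.37). In VGAT;NuTRAP the value was positive for 7 of 8 astrocyte (median 0.29), 7 of 7 oligodendrocyte (0.27), 5 of 8 microglial (0.24) and 3 of 5 endothelial markers (0.21). None of these markers was called with age in either model, and their part in the age values was not tested.

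Among the 25 receptor partners, age was called for 0 of 21 tested in DAT;NuTRAP and 0 of 23 in VGAT;NuTRAP by edgeR, against 0.00672% and 0.0256% of all genes called higher and 0 called lower. In DAT;NuTRAP 1 of the 21 had an unadjusted p below 0.05, against 5.28% of all genes. Their median log2 fold changes were 0.03 and -0.03, against 0.00 over all genes in both. In VGAT;NuTRAP 4 of the 23 had an unadjusted p below 0.05, against 5.98% of all genes. They were Gabrr2 (-1.01), a rho subunit that averaged 0.675 CPM in VGAT;NuTRAP, Akap5 (0.19), which anchors kinases at the receptor, Gphn (-0.10) and Zdhhc3 (-0.15), a palmitoyltransferase. All had adjusted p of 0.784 or more.

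The genes whose level followed each subunit most closely from library to library, after the mean of each model and batch was removed, were Grm5 (r = 0.73) and Pik3r1 (r = 0.70) for Gabra2, Wnk3 and Bcl2 (both r = 0.77) for Gabra3, Col25a1 (r = 0.62) and Gabrb1 (r = 0.61) for Gabra4, and Ss18 (r = 0.75) and Slco5a1 (r = 0.74) for Gabrd, over 37 libraries and 14392 genes compared. These are Pearson correlations given as a description, and the points share depth and batch handling. Some differed between the models. Ss18 with Gabrd was at r = 0.81 in DAT;NuTRAP and 0.10 in VGAT;NuTRAP, and Col25a1 with Gabra4 at 0.28 and 0.75. The genes named for Gabra2 and Gabra3 had r of 0.48 or more in each model. Gabrd was near the lower limit of measurement. Gabrb1 shares exon bases with Gabra4. St8sia4 followed Gabra5 at r = 0.96, and at 0.70 without DAT;NuTRAP old female 2, the library with a Gabra5 count of 0. Among the 5 subunit genes themselves, correlations within a model lay between -0.38 and 0.45.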

How the data were processed

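The mRNA bound to GFP-tagged ribosomes of 37 mice was made into libraries with a directional poly-A kit. The authors trimmed reads, aligned them with STAR 2.7.10b to mm39 (GRCm39) and counted reads per gene with featureCounts (version not given in the sources used here). The deposited values are raw counts, whole numbers with no scaling, for 57180 genes. The authors' later low-count filter, removal of astrocyte and microglia genes, batch correction and tests came after these tables.

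Groups and batches were read from the labels. Comparing the counts of same-condition libraries (70 pairs) found none deposited more than once, with a lowest chi-square per degree of freedom of 5.46. GENCODE M39, of the same build, held 56620 of the identifiers and all 6 genes. The counts went into edgeR 4.0.16 under R 4.3.3 (scaling by TMM, filterByExpr with a minimum count of 10, robust quasi-likelihood fit with batch as a term, Benjamini-Hochberg over all tested genes). One fit over 37 libraries gave the cell type contrasts, and separate fits by model, and by model and sex, gave age. DESeq2 1.42.0, RLE factors, other filters, other batch terms, single batches, sex as a covariate, a replicate block, and leaving out libraries were alternatives. Scripts were tested on simulated data. Intervals and p-values measure the spread between mice (1 library each), and limits for a count of 0 cover counting error only.

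Named genes were the 6 members, partner genes of their clusters, gephyrin and radixin, up to 4 partners of smallest p per comparison, the 2 genes most like each member, and label genes. Some genes that this rule names are not reported here. The members and lists were chosen with earlier results of these data known. Replicate numbers were taken from the labels and were not used to pair samples. No protein sequence was used.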

Additional observations from a re-analysis of the deposited data

Results flagged for a closer look

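In 20 groups of 8 to 10 libraries (5 genes, 2 models, 2 ages), 4 values from 3 libraries stood far from the rest of their group. The rule is set to flag about 1 group in 20 by chance where values are normally distributed. Whether these CPM, pooled over 2 batches, are so distributed was not tested, so that rate may not apply. Gabra2 was at 72.9 CPM in DAT;NuTRAP young male 2, against 33.9 CPM in the next highest young DAT;NuTRAP library. The same library was highest for Gabra5, at 19.7 CPM against 11.7 CPM in the next. Gabrd was at 6.99 CPM in DAT;NuTRAP old female 2, against 2.79 CPM in the next highest old library, and at 4.08 CPM in VGAT;NuTRAP young female 6, against 1.34 CPM in the next highest young library. Without these 3 libraries together, an alternative chosen after seeing the data, 1 gene was called higher and 3 lower in DAT;NuTRAP over VGAT;NuTRAP as before, with log2 fold changes of -1.87 for Gabra2, -0.45 for Gabra3, 0.99 for Gabra4 and -1.72 for Gabra5.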

How the results depend on the processing

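The members' cell type calls held with DESeq2, RLE factors, other filters and batch terms, sex as a covariate, and without any 1 library. With the first batch alone, 1 gene in place of 3 was called lower in DAT;NuTRAP, in both ages together, in old and in young mice, since Gabra2 and Gabra3 lost the call, and Gabrd was at 0.75 in young and -0.18 in old mice. The cause was not tested. Without the filter on low counts, 1 gene (Gabra2) was called lower for age by sex in VGAT;NuTRAP.

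Uncalled log2 values that turned sign were as follows. In the first batch alone, age by cell type gave 0.23 (Gabra2), 0.20 (Gabra4), 0.055 (Gabra5) and -0.93 (Gabrd), age in DAT;NuTRAP -0.22 (Gabra3) and -0.34 (Gabrd), and age in VGAT;NuTRAP -0.65 (Gabra2), -0.38 (Gabra4) and 0.60 (Gabrd). In the second batch alone, age gave 0.17 (Gabra2) in DAT;NuTRAP, and 0.0075 (Gabra3) and 0.059 (Gabra5) in VGAT;NuTRAP. Without the 3 distant libraries, chosen after seeing the data, Gabrd between the models was at -0.029, 0.33 in young and -0.39 in old mice. Age by cell type was then 0.25 (Gabra5) and -0.72 (Gabrd), age in DAT;NuTRAP 0.12 (Gabra2), 0.24 (Gabra5) and -0.51 (Gabrd), and age in VGAT;NuTRAP 0.22 (Gabrd). Without a batch term, Gabra5 was at 0.0083 for age in VGAT;NuTRAP and 0.057 in its females, Gabra2 at -0.00044 in DAT;NuTRAP males and Gabra3 at -0.069 for age by sex in VGAT;NuTRAP. Gabra4 for age in VGAT;NuTRAP was at -0.0033 with sex as a covariate and -0.050 without mice of 7, 10.5 or 24 months.

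Leaving out 1 library at a time changed no call, and turned the sign of uncalled values within these ranges. Between the models, the fits gave Gabrd from -0.24 to 0.36. Between the models in young mice, the fits gave Gabrd from -0.68 to 0.25. Between the models in old mice, the fits gave Gabrd from -0.32 to 0.61. For age by cell type, they gave Gabra3 from -0.022 to 0.081, Gabra5 from -0.35 to 0.071 and Gabrd from -0.16 to 1.17. For age in DAT;NuTRAP, they gave Gabra2 from -0.29 to 0.14, Gabra3 from -0.014 to 0.057, Gabra5 from -0.38 to 0.081 and Gabrd from -0.36 to 1.06. For age in VGAT;NuTRAP, they gave Gabra4 from -0.039 to 0.086, Gabra5 from -0.069 to 0.0075 and Gabrd from -0.28 to 0.22. For age in DAT;NuTRAP males, they gave Gabra2 from -0.23 to 0.63, Gabra4 from -0.045 to 0.059, Gabra5 from -0.22 to 0.39 and Gabrd from -0.82 to 0.54. For age in VGAT;NuTRAP females, they gave Gabra3 from -0.075 to 0.0047, Gabra4 from -0.054 to 0.13 and Gabrd from -0.84 to 0.35. For age in VGAT;NuTRAP males, they gave Gabra2 from -0.73 to 0.011, Gabra3 from -0.14 to 0.013, Gabra4 from -0.24 to 0.15, Gabra5 from -0.27 to 0.095 and Gabrd from -0.071 to 0.22. For age by sex in VGAT;NuTRAP, they gave Gabra3 from -0.072 to 0.075, Gabra4 from -0.27 to 0.062, Gabra5 from -0.22 to 0.13 and Gabrd from -0.24 to 0.80.

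Same-numbered mice deviated together in some pairs and not in others, and were not taken as paired (r from -0.18 to 0.37, 4 of 9 pairs over 0.1, in DAT;NuTRAP and from -0.11 to 0.40, 2 of 8 over 0.1, in VGAT;NuTRAP). The r was positive in every pair of the same batch and negative in every pair of different batches. With the replicate block, 4322 genes were called higher and 5195 lower between the models, against 5075 and 5145 without it, and no call of the 5 genes changed. Under the block Gabrd was at -0.036 between the models, 0.26 for age in VGAT;NuTRAP, 0.35 in its females and 1.89 in DAT;NuTRAP males. Gabra3 was at -0.0051 for age in DAT;NuTRAP and 0.014 in VGAT;NuTRAP males, Gabra4 at -0.0042 for age in VGAT;NuTRAP, and Gabra5 at 0.14 in DAT;NuTRAP females and 0.024 in VGAT;NuTRAP females.

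By coding length, the shares were 52.5% (Gabra3) and 29.8% (Gabra4) in DAT;NuTRAP, and 28.9% (Gabra2), 49.6% (Gabra3) and 10.8% (Gabra5) in VGAT;NuTRAP. By the longest coding transcript, Gabra4 held 10.7% in VGAT;NuTRAP. These shares were computed from the same CPM and differ from those above only in the length used. Gabrd had 0 to 129 counts in a DAT;NuTRAP library, so that its level in a single library rests on few counts, and it was at 0 in the deepest library and highest in CPM in the shallowest.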
